A study of Homo sapiens with 6 samples.

Results

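Target genes of canonical Wnt signaling that are used to read the pathway in colorectal cells (AXIN2, LGR5, ASCL2, NKD1, RNF43, ZNRF3, TCF7, TCF7L2, MYC and CCND1) were followed in RNA-seq data of HCT-116 cells. A row of the expression table was taken for a gene when the gene's symbol was among the names given for that row. Of the 10 genes, 9 had a row among the 27918 rows of the table, and ASCL2, a transcription factor of intestinal stem cells, had none. Of these, 7 genes were alone in their row. The AXIN2 row also held AC004805.1 and CEP112, and the RNF43 row also held SUPT4H1, so a value of either row cannot be assigned to the Wnt target alone.

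HCT-116 is an established human colorectal cancer cell line. The cells were transfected with a GapmeR, an antisense oligonucleotide that directs RNase H to cut its target RNA, at 10 nM. The 3 GapNC libraries came from cells given a control GapmeR and the 3 GapC9 libraries from cells given a GapmeR against the long non-coding RNA CASC9, and the study asked which genes respond to loss of CASC9. The time between transfection and RNA extraction is given as 24 h in one place of the study and 48 h in another.

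Canonical Wnt signaling is controlled through the stability of β-catenin. Without a Wnt ligand, a destruction complex built on AXIN and APC has β-catenin phosphorylated by GSK3 and CK1 and degraded, whereas Wnt bound to Frizzled and LRP6 halts this, and β-catenin then works in the nucleus with TCF/LEF factors. Many targets feed back on the pathway: AXIN2 and NKD1 act inside the cell, and the ubiquitin ligases RNF43 and ZNRF3 remove Frizzled from the cell surface, an action that LGR receptors with bound R-spondin relieve. HCT-116 cells are known to carry a stabilizing mutation of β-catenin itself, a background that both groups share.

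Values are FPKM, fragments per kilobase of transcript scaled to the mapped fragments of the library, so levels of different genes can be compared per length. Taking the most frequent step between low values as 1 fragment, the depth of the 6 libraries was 22.7 to 24.4 M (mega) fragments. The libraries differed in how their values ran with GC content, and GapNC 1 stood apart. Over 10117 rows, the Spearman correlation between GC content and a library's deviation from the row mean was 0.618 in GapNC 1, and between -0.101 and 0.0130 in the other two GapNC libraries. In GapC9 it was 0.0215, -0.339 and -0.384. The targeted RNA, CASC9, measured 0, 0.0108 and 0 FPKM in GapNC and 0.0528, 0.107 and 0 FPKM in GapC9. Its level was therefore near the lower end of detection and not lower in the libraries labelled GapC9 (exact permutation test, two-sided, p = 0.4). The table thus gives no check of the knockdown in these libraries, which applies to each direction reported here. By RT-qPCR, the study reported lower CASC9 in HCT-116 cells given the CASC9 GapmeR, without stating that the same RNA was sequenced. Of the 10 colon epithelial markers, KRT8, KRT18, KRT19 and EPCAM were high, CDH17, VIL1 and LGALS4 were at most 0.0528 FPKM, and the list summed to 1006 to 1401 FPKM in GapNC and 995 to 1261 FPKM in GapC9. Fibroblast markers summed to 4.21 to 5.72 and 4.42 to 5.32 FPKM, nearly all of it COL3A1 and COL1A1, and endothelial markers to at most 0.11 FPKM. The immune list summed to 50.4 to 55.9 and 50.0 to 53.5 FPKM, nearly all of it from a row that joins CD68 with its neighbours, with PTPRC at or near 0. Only 7 epithelial, 2 fibroblast, 1 immune and 0 endothelial marker rows reached the filter of the test described next. None of those passed it, and the part of the markers in the results was not tested.

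The groups were compared with limma on log2(FPKM + 0.1) over the 16028 rows whose mean reached 0.1 FPKM, and a gene was called at a Benjamini-Hochberg adjusted p under 0.05. Fold changes are GapC9 over GapNC on that scale, which understates the change of low genes. Nothing states that the 3 libraries of a group came from separate cultures, so the p-values measure the spread between these libraries, which may be technical. With 3 libraries against 3, an exact permutation test of 1 gene cannot go below p = 0.1. In all, 1120 rows (6.99%) were called, 303 (1.89%) higher and 817 (5.10%) lower in GapC9.

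Among the 10 genes, 8 passed the filter, and LGR5 did not. Of the 8, TCF7 alone (1 gene) was called lower and 0 were called higher (3 lower and 0 higher at an unadjusted p under 0.05), against 5.10% and 1.89% of all rows by the adjusted p and 16.8% and 9.09% by the unadjusted p. A ratio of means of at most 0.5 together with an unadjusted limma p under 0.05 held for TCF7 and ZNRF3, and for 4.32% of all rows. The study used these thresholds with edgeR, so these are not its own calls. The GapC9 libraries lay wholly below the GapNC libraries for TCF7, ZNRF3, NKD1 and CCND1, against 21.6% of all rows, and wholly above them for the AXIN2 row, against 12.6% of all rows. The median log2 fold change of the 8 was -0.20, with 7 of 8 below 0, beside a median of -0.08 over all rows tested, of which 56.4% lay below 0. Median scaling of the libraries left 6 of the 8 below 0 (48.9% of all rows), and correction for GC content 5 of 8 (47.8% of all rows).

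**Figure D1:**
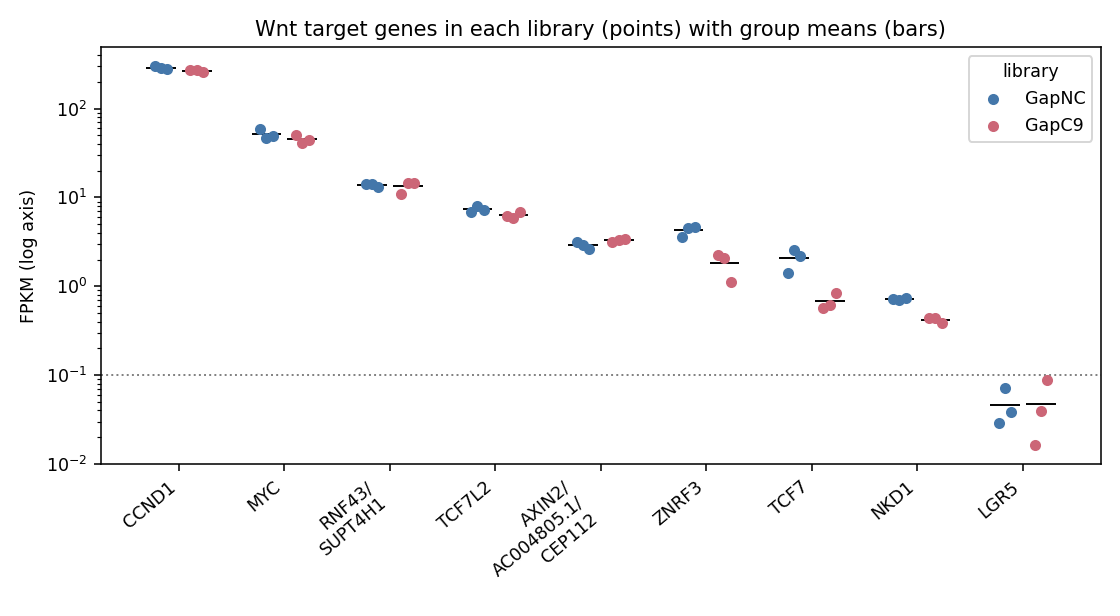
FPKM (log axis) of the 9 Wnt target genes that have a row, with 1 point per library, GapNC in blue and GapC9 in red, a black bar for each group mean and a dotted line at the filter of 0.1 FPKM. The red points lie below all blue points for CCND1, ZNRF3, TCF7 and NKD1 and above them for the AXIN2 row, and the genes span from 299 FPKM for the highest library of CCND1 to 0.0162 FPKM for the lowest of LGR5.

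TCF7 and TCF7L2 encode TCF-1 and TCF-4, DNA-binding partners of β-catenin, and both can be made in short forms that lack the β-catenin binding region and repress. TCF7 lies on the plus strand of GRCh38 chromosome 5, from 134114711 to 134151865 in GENCODE 29. It measured 1.40, 2.57 and 2.22 FPKM in GapNC and 0.563, 0.620 and 0.844 FPKM in GapC9. The highest GapC9 library was thus below the lowest GapNC library, and GapNC 1 was the lowest of its group. The means were 2.06 ± 0.604 and 0.676 ± 0.149 FPKM (SD, n = 3 each), 3.05-fold lower in GapC9. On the log2 scale TCF7 fell by 1.45 (SE 0.266, 95% interval -2.11 to -0.80, limma adjusted p = 0.0366). The call was lost when any library other than GapNC 1 was left out (log2 fold change -1.28 to -1.70 and adjusted p 0.0331 to 0.129 over the 6 omissions), with median or quantile scaling, with no filter, with the correction for GC content and with the replicate number as a block. Among all rows, the omissions left 16 to 570 called lower, where 817 were called with all 6 libraries. TCF7 stayed below 0 in all 16 alternative fits. Its groups did not overlap, so only the scaling and GC correction fits could have turned its direction.

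TCF7 overlaps SKP1 on the other strand, with 210 exonic bases in common, and the sources used here do not state whether strand was used in quantification. The row holding SKP1, joined with PPP2CA and other neighbours, measured 14.5, 15.7 and 16.4 FPKM in GapNC and 19.5, 20.8 and 19.4 FPKM in GapC9. Its GapC9 libraries lay wholly above its GapNC libraries, as in 12.6% of all rows tested. Whether reads of the shared bases entered the TCF7 value was not tested. Other members also share exonic bases with a gene on the opposite strand. These are RNF43 (1521 with TSPOAP1-AS1), CCND1 (497 with LTO1, which had no row), TCF7L2 (300), LGR5 (208) and NKD1 (67).

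The table of RefSeq promoters used here (250 bases before a start, on GRCh38.p14) had entries for 3 of the 10 genes, RNF43, TCF7 and TCF7L2, with 7 promoters in all, 2 of them for TCF7 and both within its annotated span. One TCF7 promoter is shown because TCF7 is the gene that was called and encodes a TCF factor. It is the one that overlaps no annotated TCF7 exon, at chr5:134123368-134123617, plus strand. Capitals mark CAAAG, which reads CTTTG, the core of the TCF/LEF binding motif, on the other strand.
TCF7 promoter: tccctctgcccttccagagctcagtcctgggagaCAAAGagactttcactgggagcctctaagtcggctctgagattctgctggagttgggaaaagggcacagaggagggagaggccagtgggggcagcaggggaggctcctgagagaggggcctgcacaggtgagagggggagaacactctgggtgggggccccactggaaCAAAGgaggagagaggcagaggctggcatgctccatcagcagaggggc
The other TCF7 promoter, at chr5:134115363-134115612, held 0 matches to the core. The core was found on either strand in 5 of the 7 promoters and in 42.1% of the 35116 promoters of the table. Of longer forms, only CTTTGAA and CTTTGAT, which contain the core, were searched, and they were in 0 of the 7 and in 5.94% of all promoters. Others were not counted, among them CTTTGTT, which the last marked match above reads on the other strand. These matches describe the letters of a short window, and the expression values do not say which start site was used.

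TCF7L2 (chromosome 10, 112950250 to 113167678, plus strand) measured 6.78, 8.01 and 7.16 FPKM in GapNC and 6.15, 5.91 and 6.86 FPKM in GapC9. The groups overlapped, as GapC9 3 lay above GapNC 1. The means of 7.32 ± 0.630 and 6.31 ± 0.493 FPKM gave a log2 fold change of -0.21 (SE 0.117, 95% interval -0.50 to 0.08, limma adjusted p = 0.313), so the difference did not pass the test, and it was -0.11 after median scaling. Within a library, the ratio of TCF7 to TCF7L2 was 0.206, 0.321 and 0.310 in GapNC and 0.0914, 0.105 and 0.123 in GapC9. The TCF7 level was thus smaller relative to TCF7L2 in each GapC9 library than in any GapNC library, with means of 0.279 ± 0.0635 and 0.106 ± 0.0159. The log2 ratio (with 0.1 FPKM added to both values) differed by -1.24, with an exact permutation p of 0.1 (two-sided), the lowest the design allows. The ratio reuses the TCF7 values given above and is not separate evidence. Single rows also separated fully in 21.6% (lower) and 12.6% (higher) of all rows tested. TCF7L1, the other TCF factor with a row, had means of 1.98 ± 0.334 and 1.60 ± 0.311 FPKM in GapNC and GapC9 with overlapping libraries (limma adjusted p = 0.389), and LEF1 had no row.

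ZNRF3 and RNF43 are membrane ubiquitin ligases that take Frizzled receptors off the surface and so restrain Wnt signaling. ZNRF3 (chromosome 22, 28883592 to 29057487, plus strand) measured 3.63, 4.56 and 4.67 FPKM in GapNC and 2.24, 2.08 and 1.11 FPKM in GapC9. All GapC9 libraries lay below all GapNC libraries, and GapC9 3 stood lowest. The means were 4.29 ± 0.573 and 1.81 ± 0.613 FPKM, a ratio of 0.422. The log2 fold change of -1.25 (SE 0.281, 95% interval -1.94 to -0.56) had an unadjusted p of 0.00433 and missed the adjusted threshold (limma adjusted p = 0.0551). Without GapC9 3 the log2 fold change was -0.95 and ZNRF3 no longer met the rule of fold and unadjusted p. It was past the adjusted threshold with a pseudocount of 1 (adjusted p = 0.0474) and with a filter at 1 FPKM (0.0444).

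The row of RNF43 (chromosome 17, 58352500 to 58417595, minus strand) joins 8 RNF43 transcripts with those of SUPT4H1, a transcription elongation factor subunit, and 3 newly assembled ones. It measured 14.1, 14.3 and 13.0 FPKM in GapNC and 10.9, 14.7 and 14.6 FPKM in GapC9. GapC9 1 was the lowest of the 6 libraries, while the other two GapC9 libraries were the highest. The log2 fold change of -0.05 (SE 0.147, 95% interval -0.41 to 0.31, limma adjusted p = 0.851) did not pass the test, and it was 0.09 without GapC9 1, 0.05 after median scaling and 0.06 after GC correction.

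The ratio of the RNF43 row to ZNRF3 was 3.89, 3.13 and 2.79 in GapNC and 4.85, 7.08 and 13.2 in GapC9. Each GapC9 library was above each GapNC library, and GapC9 3, the library with the lowest ZNRF3, had the largest ratio. The means were 3.27 ± 0.567 and 8.38 ± 4.32, and the log2 ratio differed by 1.20 (exact permutation test, two-sided, p = 0.1, the lowest the design allows). The ratio reuses the ZNRF3 values given above and is not separate evidence. How much of this ratio belongs to RNF43 and how much to SUPT4H1 cannot be told apart in the joined row.

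**Figure D2:**
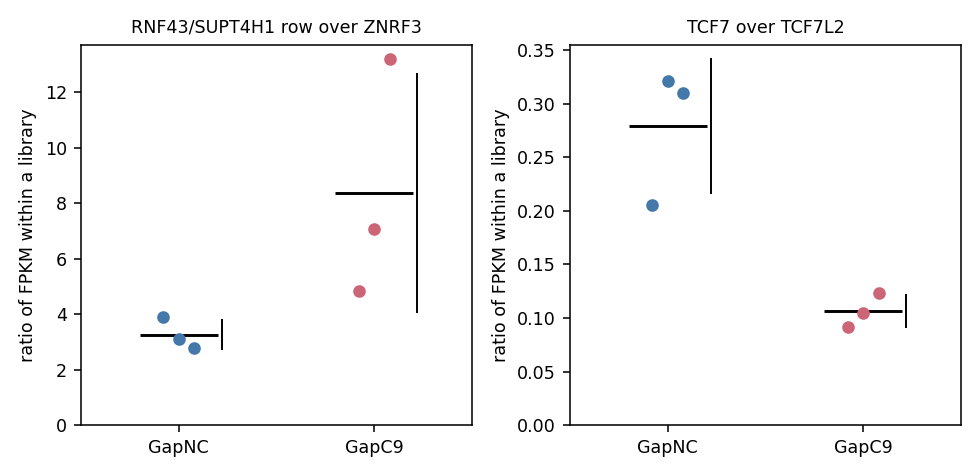
Ratio of FPKM within each library (1 point per library, bars for the mean and vertical lines for 1 SD, n = 3) of the RNF43/SUPT4H1 row over ZNRF3 (left) and of TCF7 over TCF7L2 (right). The left ratio was 2.79 to 3.89 in GapNC and 4.85 to 13.2 in GapC9, and the right ratio 0.206 to 0.321 in GapNC and 0.0914 to 0.123 in GapC9.

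NKD1 and AXIN2 are feedback inhibitors inside the cell: NKD1 binds Dishevelled, and AXIN2 is a scaffold of the destruction complex. NKD1 (chromosome 16, 50548330 to 50649249, plus strand) measured 0.716, 0.701 and 0.738 FPKM in GapNC and 0.441, 0.441 and 0.383 FPKM in GapC9. The spread within each group was small beside the gap between them, and the groups did not overlap. Its means were 0.718 ± 0.0185 and 0.421 ± 0.0334 FPKM, and the mean was 41.3% lower in GapC9. The log2 fold change of -0.65 (SE 0.143, 95% interval -1.0 to -0.30) missed the adjusted threshold (limma unadjusted p = 0.00384, adjusted p = 0.0521), and 4 of 15 alternative fits passed it. The longest NKD1 transcript of its row has 17105 bases. NKD2 had overlapping libraries, with means of 3.07 ± 1.14 FPKM in GapNC and 2.38 ± 0.299 FPKM in GapC9 (limma adjusted p = 0.510).

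The AXIN2 row (AXIN2 on chromosome 17, 65528563 to 65561647, minus strand) joins 7 AXIN2 transcripts among 23 with those of the neighbouring CEP112 and of AC004805.1. It measured 3.17, 2.88 and 2.62 FPKM in GapNC and 3.18, 3.36 and 3.42 FPKM in GapC9. The groups did not overlap, but GapC9 1 exceeded GapNC 1 only in the third digit. The means of 2.89 ± 0.271 and 3.32 ± 0.123 FPKM gave a log2 fold change of 0.20 (SE 0.117, 95% interval -0.09 to 0.48, limma adjusted p = 0.348). Of the 16 alternative fits, the correction for GC content alone called the row higher, with a log2 fold change of 0.35 and an adjusted p of 0.0480. AXIN1, the constitutive counterpart, had GapC9 libraries (5.03 to 6.46 FPKM) below its GapNC libraries (6.73 to 8.53 FPKM), with a log2 fold change of -0.42 that did not pass (limma adjusted p = 0.163) and was -0.09 after correction for GC content.

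LGR5, a receptor for R-spondins that marks intestinal stem cells, lies on chromosome 12 from 71439770 to 71586310, plus strand. It measured 0.0290, 0.0716 and 0.0382 FPKM in GapNC and 0.0162, 0.0394 and 0.0873 FPKM in GapC9. These values correspond to an estimated 1.72 to 9.53 fragments per library, and all GapNC libraries lay within the range of the GapC9 libraries (exact permutation test, two-sided, p = 0.9), so no difference was detectable at this depth. In a bulk sample, fewer LGR5-positive cells and less LGR5 RNA per cell cannot be told apart. LGR4 was more abundant, with means of 0.796 ± 0.161 FPKM in GapNC and 0.987 ± 0.113 FPKM in GapC9 (limma adjusted p = 0.388), and LGR6 stayed at or below 0.0284 FPKM. ASCL2 had no row.

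MYC and CCND1 (cyclin D1) drive growth and passage into S phase, and were the most abundant of the 10 genes. MYC (chromosome 8, 127735434 to 127741434, plus strand) measured 59.6, 47.2 and 49.1 FPKM in GapNC and 50.1, 41.3 and 44.8 FPKM in GapC9. GapNC 1 was the highest library, and GapC9 1 lay above the other two GapNC libraries, so the groups overlapped. The means of 52.0 ± 6.70 and 45.4 ± 4.42 FPKM gave a log2 fold change of -0.19 (SE 0.130, 95% interval -0.51 to 0.13, limma adjusted p = 0.403). It was -0.09 without GapNC 1 and -0.02 after correction for GC content.

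CCND1 (chromosome 11, 69641087 to 69654474, plus strand) measured 299, 284 and 279 FPKM in GapNC and 271, 274 and 257 FPKM in GapC9. The groups did not overlap, yet the gap between the nearest libraries was small beside the level. The means of 288 ± 10.4 and 267 ± 9.34 FPKM gave a log2 fold change of -0.10 (SE 0.0719, 95% interval -0.28 to 0.07, limma adjusted p = 0.410), which was 0.0017 after correction for GC content. The difference did not pass the test. Of the other family members, CCND3 measured 12.9, 4.63 and 4.56 FPKM in GapNC and 4.16, 3.43 and 3.22 FPKM in GapC9, where GapNC 1 alone set most of the distance (limma adjusted p = 0.267). CCND2 was at most 0.0246 FPKM, MYCL was 0.562 to 1.28 FPKM in GapNC and 0.306 to 1.14 FPKM in GapC9 (limma adjusted p = 0.937), and MYCN had no row.

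**Figure D3:**
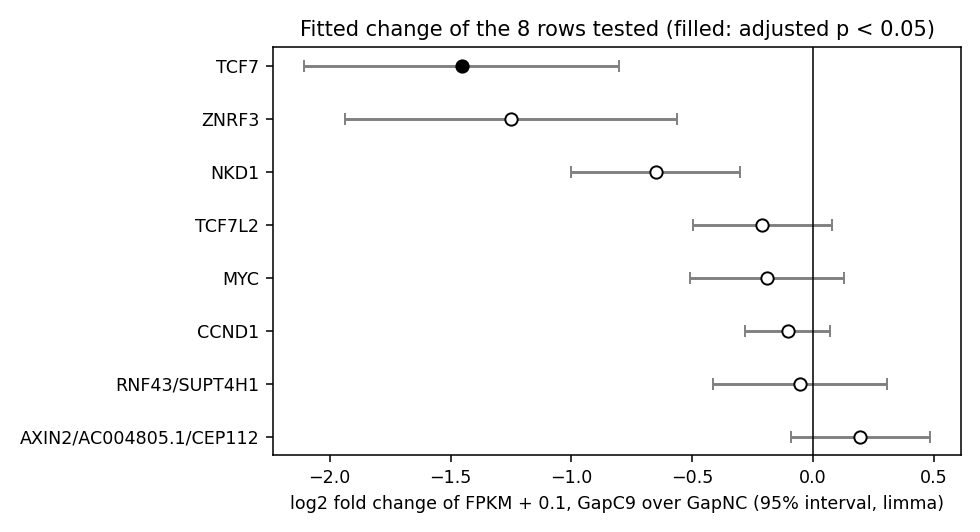
Log2 fold change of FPKM + 0.1 (GapC9 over GapNC) with its 95% interval from limma for the 8 Wnt target genes tested, with filled points for an adjusted p under 0.05. Only TCF7 (-1.45) is filled, the intervals of ZNRF3 and NKD1 also lie below 0, and those of the other 5 span 0.

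The order of the levels differed between the groups at 1 place. In both groups it ran CCND1, MYC, the RNF43 row and TCF7L2 at the top and TCF7, NKD1 and LGR5 at the bottom. Between them ZNRF3 (3.63 to 4.67 FPKM) stood above the AXIN2 row (2.62 to 3.17 FPKM) in GapNC, and below it in GapC9 (1.11 to 2.24 against 3.18 to 3.42 FPKM). The libraries of neighbouring genes overlapped in 0 of the 8 neighbouring pairs of either group, with the smallest distance between the AXIN2 row and TCF7 in GapNC (lowest library 2.62 and highest library 2.57 FPKM).

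The rest of the pathway was read from 6 hand-written lists with 98 rows in all, of which 87 were tested. In these, 5 rows were called higher and 8 lower, 14.9% of those tested against 6.99% of all rows. Over all rows, 1.89% were called higher and 5.10% lower, the background for each list below. The 87 rows had a median log2 fold change of -0.17, beside -0.08 over all rows tested. After correction for GC content the median over all rows was 0.02, and list medians were not computed with it. The lists were chosen with earlier results of these data known, so these shares are descriptions and not a test. When each library was left out in turn, SOX9, GSK3B, KREMEN1 and the PYGO2 and MXD1 rows passed in 0 of 6 fits. Each of the other called rows passed in 1 of 6. Calls also fell over all rows in these fits, from 303 higher and 817 lower to 16 to 240 higher and 16 to 570 lower.

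Of 28 rows for other Wnt targets, 22 were tested, 3 were called higher and 1 lower, and the median of their log2 fold changes was 0.04. SP5, a transcription factor that represses Wnt targets in feedback, measured 0.525, 0.132 and 0.174 FPKM in GapNC and 3.37, 1.99 and 2.18 FPKM in GapC9. SP5 rose by 2.90 on the log2 scale (SE 0.423, limma adjusted p = 0.0255), the largest rise among the called pathway rows. SOX9, a transcription factor of the crypt base, measured 25.1, 27.0 and 27.9 FPKM in GapNC and 41.0, 39.7 and 35.0 FPKM in GapC9, a rise of 0.53 (adjusted p = 0.0395). In contrast, TIAM1, an exchange factor for Rac, measured 3.31, 3.46 and 3.63 FPKM in GapNC and 1.51, 1.68 and 1.90 FPKM in GapC9 and fell by 0.99 (adjusted p = 0.0192). The targets that passed therefore moved in both directions.

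Among the 18 receptor rows tested, 3 were called lower and 0 higher, against 5.10% and 1.89% of all rows. The median log2 fold change of the 18 was -0.32, beside -0.08 over all rows. LRP6, the Wnt co-receptor, measured 3.86, 4.92 and 5.21 FPKM in GapNC and 1.86, 1.83 and 1.96 FPKM in GapC9. LRP6 fell by 1.25 (SE 0.146, limma adjusted p = 0.0172), with every GapC9 library below every GapNC library. ROR2, a receptor of non-canonical Wnt signals, measured 4.04, 2.61 and 2.46 FPKM in GapNC and 1.16, 0.902 and 0.820 FPKM in GapC9 and fell by 1.54 (adjusted p = 0.0270). KREMEN1, a receptor for the Wnt antagonists of the DKK family, fell by 0.65, from 5.85 ± 0.568 to 3.70 ± 0.454 FPKM (adjusted p = 0.0493).

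Among the 15 rows of the destruction complex and Dishevelled, 2 were called lower and 0 higher, against 5.10% and 1.89% of all rows. The median was -0.31 on the log2 scale, beside -0.08 over all rows. GSK3B, a kinase that marks β-catenin for degradation, measured 5.22, 6.03 and 5.49 FPKM in GapNC and 3.17, 2.80 and 3.96 FPKM in GapC9 and fell by 0.75 (limma adjusted p = 0.0467). The row of CSNK1E, a casein kinase joined here with Z98749.3 and Z98749.2, fell by 0.76, from 14.7 ± 1.94 to 8.63 ± 0.827 FPKM (adjusted p = 0.0351). The most abundant rows of this list, those of DVL1, GSK3A and CSNK1A1, did not pass (adjusted p = 0.193, 0.795 and 0.155).

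Among the 20 nuclear partner rows tested, 1 was called higher and 1 lower (median of the log2 fold changes -0.13). CTNNB1, β-catenin itself, measured 51.7, 49.9 and 55.6 FPKM in GapNC and 53.8, 52.0 and 50.8 FPKM in GapC9, with overlapping groups (limma adjusted p = 0.982). BCL9, a co-activator that binds β-catenin, rose by 0.46, from 7.38 ± 0.370 to 10.2 ± 0.320 FPKM (adjusted p = 0.0454). Its relative BCL9L had means of 23.6 ± 4.31 and 34.7 ± 1.06 FPKM and did not pass (adjusted p = 0.0786), nor did AES, a shortened Groucho family protein (0.943). The joined row of PYGO2, which links BCL9 to chromatin, and SHC1 measured 26.4, 23.2 and 22.6 FPKM in GapNC and 14.2, 17.0 and 14.0 FPKM in GapC9 and fell by 0.67 (adjusted p = 0.0361).

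Of the 9 rows for members of the MAX network around MYC (the list labelled MYC partner), 1 was called higher and 1 lower. The median of their log2 fold changes was -0.40, beside -0.08 over all rows. MLXIP, which pairs with MLX, measured 16.5, 13.7 and 13.1 FPKM in GapNC and 6.26, 4.80 and 5.61 FPKM in GapC9 and fell by 1.36 (limma adjusted p = 0.0159). The joined row of MXD1, a MAX partner that opposes MYC, and SNRNP27 rose by 0.99, from 2.73 ± 0.546 to 5.44 ± 0.137 FPKM (adjusted p = 0.0310). MLX and MAX did not pass (adjusted p = 0.603 and 0.184). In the list of family counterparts of the 10 genes, 0 of 6 rows tested were called by limma, and 1 was lower and 0 higher at an unadjusted p under 0.05.

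**Figure D4:**
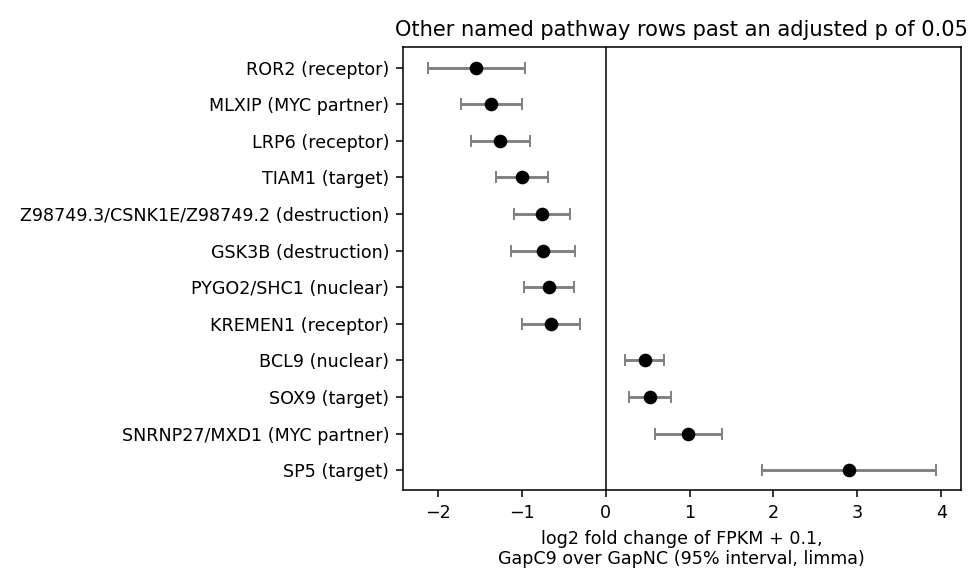
Log2 fold change of FPKM + 0.1 (GapC9 over GapNC) with its 95% interval from limma for the other pathway rows named in the text with an adjusted p under 0.05, with the list of each in brackets. The 8 points below 0 run from ROR2 at -1.54 to KREMEN1 at -0.65, and those above 0 from BCL9 at 0.46 to SP5 at 2.90.

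The longest transcripts of the 9 genes hold 43.8% (LGR5) to 54.9% (TCF7) GC. After correction for GC content the log2 fold change was -1.27 for TCF7 (adjusted p = 0.0568), -1.09 for ZNRF3 and -0.52 for NKD1 (adjusted p = 0.0480), so NKD1 and no longer TCF7 passed as lower. Without GapNC 1 it was -1.70 for TCF7, -1.36 for ZNRF3 and -0.65 for NKD1.

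**Figure D5:**
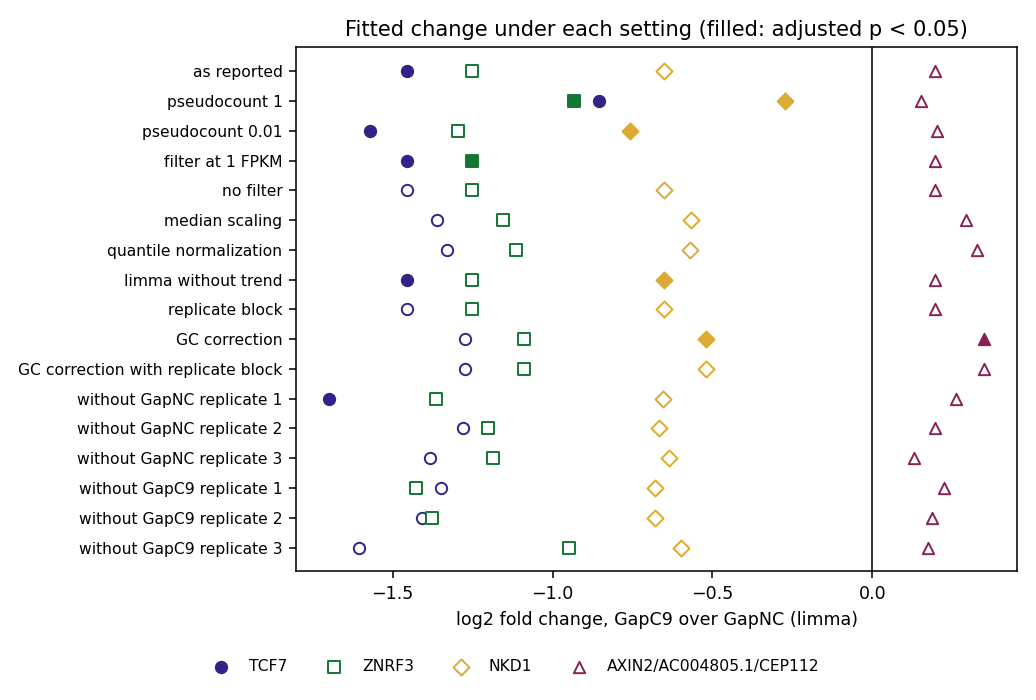
Log2 fold change (GapC9 over GapNC, limma) of TCF7, ZNRF3, NKD1 and the AXIN2 row under the reported setting and each alternative, with filled symbols for an adjusted p under 0.05. TCF7, ZNRF3 and NKD1 lie left of 0 and the AXIN2 row right of 0 under each setting shown, while the filled symbols change from one setting to the next. The groups of these rows did not overlap, so only the scaling and GC correction settings could have moved a symbol across 0.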

How the data were processed

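The authors aligned paired reads of poly(A) RNA with HISAT and deposited FPKM values estimated by StringTie, in 1 table for all 6 libraries. The submitters' processing notes name HISAT2 2.0, StringTie 1.3.0 and Bowtie 0.12.2, and a mouse build, whereas the study's methods name the human genome without a release. The assembly joined several genes in 1063 rows. The study's own calls came from edgeR, and counts were not analysed here. No column of values was left unused.

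Groups and replicate numbers came from the sample labels. FPKM values were used as deposited, and limma 3.58.1 (R 4.3.3, empirical Bayes with an intensity trend) was fitted to log2(FPKM + 0.1) of all rows whose mean reached 0.1 FPKM, with Benjamini-Hochberg adjustment over all of them. The script was tested on simulated data. SDs come from 3 FPKM values. Without counts the depth behind single values is an estimate, and low rows are the least precise. Coordinates and GC content come from GENCODE 29 (GRCh38), which may differ from the build used by the authors, and promoters from RefSeq. GC content was known for 15909 of the 16028 rows tested (99.3%).

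The 10 genes, the pathway lists and the markers were chosen with earlier results of these data known, so counts over them are descriptions. Genes named are the 10, their family counterparts, called rows of the other lists and, where fewer than 3 passed, the 3 most abundant. Some genes that this rule names are not reported here one by one. Alternatives were other pseudocounts, filters, scalings, no trend, a replicate block, GC correction and leaving out each library.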

Additional observations from a re-analysis of the deposited data

How the results depend on the processing

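TCF7, ZNRF3 and NKD1 kept their direction in each of the fits tried (16, 16 and 15), and 5, 2 and 4 of these passed an adjusted p of 0.05 (limma). As the groups of these genes did not overlap, only the scaling and GC correction fits could have turned a direction. The genes called lower among the 10 numbered 3 with a pseudocount of 1, 2 with a pseudocount of 0.01, a filter at 1 FPKM or limma without trend, and 0 with no filter, median scaling, quantile normalization, the replicate block or GC correction with the replicate block. Among all rows tested, 745 were called lower with a pseudocount of 1, 823 with a pseudocount of 0.01 and 660 without trend. With a filter at 1 FPKM it was 890 of 10229. GC correction called 1 of the 10 genes higher, the AXIN2 row. Leaving out each library gave 0 to 1 lower, and 1 to 2 by fold and unadjusted p. Over all rows, 303 higher and 817 lower became 146 and 346 with no filter, 0 and 0 with the replicate block, 1089 and 1228 with GC correction, and 0 and 1 with both. Median scaling and quantile normalization gave 511 and 516 lower, and left out libraries 16 to 240 higher and 16 to 570 lower, with the fewest without GapC9 3 (in the higher direction also without GapNC 2) and the most without GapNC 1. Of all calls, 72.9% were lower, 58.5% with median scaling, 59.8% with quantile normalization and 53.0% with GC correction. For other pathway genes, 5 higher and 8 lower became 2 and 4 with no filter, 3 higher without trend, 5 lower with median scaling, 9 higher with GC correction, 0 and 0 with the replicate block, with or without GC correction, and 0 to 3 and 0 to 5 over left out libraries. The cause of these shifts was not tested.

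Directions turned for genes that never passed. With GC correction, also with the replicate block, the log2 fold change was 0.0017 for CCND1, 0.058 for RNF43, 0.062 for NKD2 and 0.10 for MYCL. Median scaling gave 0.045 for RNF43 and 0.00029 for MYCL, and quantile normalization 0.016 for MYCL. Over left out libraries RNF43 ran from -0.13 to 0.089 (without GapC9 1), and MYCL from -0.39 to 0.41 (above 0 without GapNC 2, 0.25, and without GapC9 2). The ratios ranged over left out libraries from 0.83 to 1.52 (RNF43 row to ZNRF3) and from -1.44 to -1.14 (TCF7 to TCF7L2), and were 1.25 and -1.37 without pseudocount. GC correction brought TCF7L1 from -0.30 to -0.0067, and without GapNC 1 the value was -0.02 for NKD2 and -0.35 for CCND3. The CASC9 difference ranged from 0.0228 to 0.0763 FPKM.

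Same-numbered libraries deviated together weakly (correlations 0.114, 0.0362 and 0.0332). The other combinations ran from -0.12 (GapNC 3 with GapC9 1) to 0.0867 (GapNC 3 with GapC9 2). The GC correlations fell in the order of the numbers in both groups. Nothing states that the numbers pair the libraries, so the reported fit left them out and the replicate block was an alternative. Whether same-numbered libraries share a batch was not tested. The replicate block cannot move the ratio differences (1.20 and -1.24) in a balanced design, and its exact sign-flip permutation p was 0.25 for both, the lowest it allows with 3 pairs. Depth limits LGR5 and CASC9, at a few fragments per library.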
